A study of Caenorhabditis elegans with 12 samples.

Results

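The 4 RIP-seq libraries numbered replicate 1 were compared with the 8 libraries numbered 2 or 3, out of 12 in the series. RIP-seq sequences the RNA that is pulled down with a protein (the IP) and the RNA of the same lysate before the pull-down (the input). Each of 4 groups (LIN41 input, LIN41 IP, SART-3 input and SART-3 IP) held 1 library of each number, and the comparison was made within groups. Members were assigned by the replicate number in the sample labels. The comparison itself was chosen with earlier results of these data known.

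The LIN41 strain carried lin-41(n2914) with the transgene xeSi197, in which the lin-41 promoter drives FLAG- and GFP-tagged LIN41 under the lin-41 3′ UTR, and him-5(e1490). The control strain carried xeSi55, in which the dpy-30 promoter, active in most cells, drives sart-3 with a GFP, HIS and FLAG tag under the xrn-2 3′ UTR, again with him-5(e1490). The him-5 mutation, shared by all 12 libraries, raises the share of males in a culture. Whole worms of mixed sex were grown at 25 °C for about 30 h on Escherichia coli NA22 to the L3/L4 stage, and the FLAG tag was pulled down with an M2 antibody. Inputs were sequenced in lane 3 and IPs in lane 4, so the comparison of replicate numbers was made within a lane. IP and input of 1 number came from 1 lysate and are not independent, which leaves 2 lysates of replicate 1 against 4 of replicates 2 and 3. The labels do not say whether a number marks the same day of culture in both strains. If it does, there are only 3 independent cultures, 1 against 2, and an exact permutation test over them could not give a p below 0.333. The p-values below measure the spread between these libraries, and replicate number, day of culture and age of the worms cannot be told apart.

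Background for reading these genes is as follows. A C. elegans larva builds a new cuticle before each molt, and the collagens, cuticlins and hedgehog-related proteins of that cuticle are transcribed in short waves, with sets particular to a stage. The dauer larva, an arrested form entered under crowding or hunger, has a cuticle of its own. The heterochronic pathway sets stage identity. In it, lin-14 and lin-28 act early and are turned down as larvae age. The lin-41 gene acts later, and the let-7 microRNA silences it in late larvae. The switch from L4 to adult is driven by lin-29 with its cofactor mab-10. Spermatogenesis starts in the L4 stage of both sexes, with the major sperm proteins as its main products.

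Total counts were 2024430 in LIN41 input 1 against 859814 and 993849 in the other 2 LIN41 inputs, and 1274703 in SART-3 input 1 against 1354051 and 1401265. In the IPs, replicate 1 had the lowest total of both strains, 291466 and 412440, with the others between 389151 and 612445. Levels are given below as CPM, counts per 1000000 after scaling with TMM factors. At these depths, 3 counts correspond to between 1.26 and 13.6 CPM, depending on the library. Replicate 1 stood apart in every group: the chi-square per degree of freedom between libraries of a group, which would be near 1 if they differed by sampling noise only, ran from 3.98 to 16.1 where a pair included replicate 1 and from 1.69 to 2.31 between replicates 2 and 3. The chi-square was taken from counts scaled by totals, without TMM factors. For a given difference it grows with depth, and LIN41 input 1 was the deepest library. The mRNA of sart-3 lay between 60.5 and 99.2 CPM in all 6 inputs. In the LIN41 strain, counts of lin-41 hold both the mutant allele and the transgene.

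A difference of replicate 1 is given as log2 of its level over that of replicates 2 and 3, from 1 edgeR quasi-likelihood fit across all genes with the group as a term. A gene is called higher or lower where its two-sided Benjamini-Hochberg adjusted p was under 0.05. Of 12036 genes tested, 1896 (15.8%) were called higher in replicate 1 and 1982 (16.5%) lower. The median absolute difference was 0.86 among the genes called higher and 0.85 among those called lower, and 153 genes were higher by more than 2 on the log2 scale. Replicate 1 lay above both other libraries in each of the 4 groups for 1372 genes (11.4%) and below both for 1641 (13.6%). Without replicate 3, which leaves 8 libraries, 825 genes were called higher and 619 lower, and without LIN41 input 1 the counts were 1338 and 1000.

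The inputs, which measure the RNA of the worms without a pull-down, gave the same sign. In a fit of the 6 inputs alone, 1927 of 12802 genes (15.1%) were called higher and 1710 (13.4%) lower. All 1818 genes called higher over the 4 groups and tested in the inputs had a positive input value, and all 1965 called lower had a negative one. The input fit called 1443 (79.4%) of the first and 1381 (70.3%) of the second. Over all 11892 genes tested in both fits, 89.1% had the same sign, and the input fit called 29.6% with that sign. These inputs also belong to the fit over the 4 groups, so the agreement is not independent. Without LIN41 input 1, the input fit called 425 genes higher and 179 lower.

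Each strain was also fitted alone, which shares no library between the fits. The LIN41 libraries called 1390 genes higher (13.2% of 10510) and 938 lower (8.92%), and the SART-3 libraries 845 higher (7.28% of 11606) and 616 lower (5.31%). Of the genes tested in both, 464 were called higher in each strain, which is 33.4% of the LIN41 calls and 61.0% of the SART-3 calls, and 310 were called lower in each, 35.9% and 51.5%. Of the genes called higher in SART-3, 97.4% had a positive value in LIN41, and of those called lower, 94.2% had a negative one. Over all 12036 tested genes, called or not, the replicate 1 difference had the same sign in the 2 inputs for 75.7%. The IPs alone, the shallowest libraries, gave 333 genes higher (4.02% of 8281) and 148 lower (1.79%). Across the 12036 genes the difference of replicate 1 in the LIN41 input and in the SART-3 input had a Pearson r of 0.72, a description over genes, which are not independent and share depth and coding length. The difference of replicate 3 from replicate 2 in the same inputs had an r of 0.52.

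**Figure D1:**
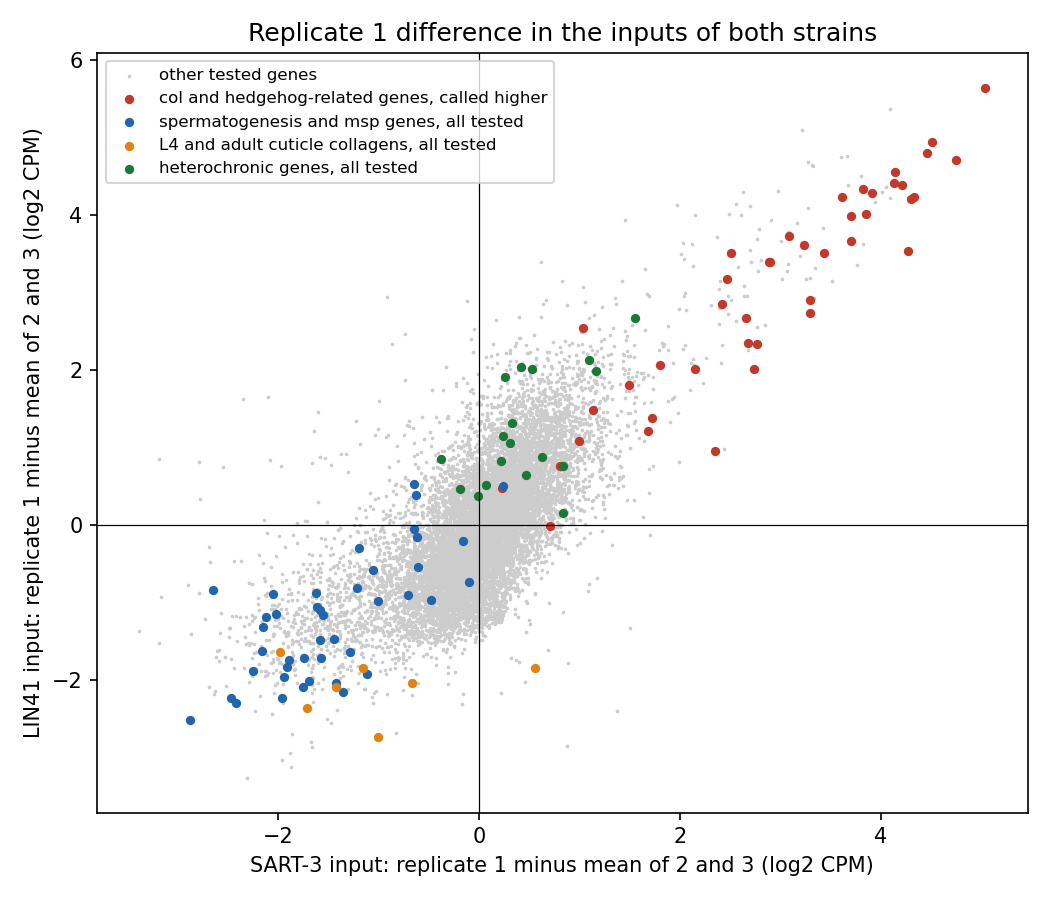
Each point is a gene, placed by its replicate 1 difference (replicate 1 minus the mean of replicates 2 and 3, log2 CPM) in the SART-3 input (x axis) and in the LIN41 input (y axis). The col and hedgehog-related genes called higher (red, chosen by their call) reach log2 values above 4 in both strains, while most sperm genes (blue) and 6 of 7 L4 and adult collagens (orange) lie below 0 in both.

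Genes of the cuticle stood first among those higher in replicate 1. Of the 10 genes of lowest p that were higher in each group, 7 were col collagens, which encode the structural proteins of the cuticle, and 2 were hedgehog-related genes. The collagen gene col-183 (chromosome X in the WBcel235 annotation) was at 293 CPM in replicate 1 against 9.87 and 8.51 CPM in replicates 2 and 3 of the LIN41 input. In the SART-3 input the 3 levels were 373, 13.5 and 10.4 CPM. Its IP levels were 1781 against 13.5 and 19.1 CPM with LIN41 and 919 against 24.9 and 19.1 CPM with SART-3. All 4 libraries of replicate 1 were thus far above all 8 others, and the fitted log2 difference was 5.46 (SE 0.21, n = 4 against 8 libraries, edgeR adjusted p = 5.28e-11), a 43.9-fold difference, with 5.01 (SE 0.16, adjusted p = 2.94e-06) in the inputs.

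The other collagen genes of this rank behaved alike in their separation. On chromosome I, col-35 was at 256 to 1103 CPM in the 4 libraries of replicate 1 and at 9.87 to 28.7 CPM in the 8 others, a log2 difference of 4.75 (SE 0.19). The level of col-51, also on chromosome I, was 380.1 to 1763 CPM against 1.10 to 24.9 CPM (log2 5.57, SE 0.28). For col-72, on chromosome II, replicate 1 had 139.6 to 574 CPM and the others 3.29 to 10.8 CPM (log2 5.13, SE 0.20). No library of replicates 2 and 3 reached the lowest library of replicate 1 for any of these. They were picked by p and by sign in each group, which favours such separation, as for other genes named by p below. Over all tested genes, replicate 1 lay above both others in each group for 11.4%. Likewise col-164, col-44 and col-185, all on chromosome X, had log2 differences of 4.38 (SE 0.20), 5.33 (SE 0.28) and 5.65 (SE 0.29), with edgeR adjusted p of 2.34e-10 to 1.70e-09. The last of these was at 76.7 to 285 CPM in replicate 1 and at 0 to 3.85 CPM elsewhere. It passed the filter on low counts through replicate 1 only and was not tested in the inputs alone. Its separation and the size of its difference follow in part from that filter and from near-floor levels elsewhere. Others of these genes may share this limit.

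The whole col family was split rather than shifted. Of 156 col genes in the table, 120 passed the filter on low counts, 31 were called higher (15.8% background) and 17 lower (16.5% background), and the family's median was -0.05. A gene that is high in replicate 1 only could pass the filter through those 4 libraries, so the counts of risers describe the genes that passed. The 31 risers ranged from 0.65 to 5.65 with a median of 3.54, 21 of them above 3, and 30 lay above both other replicates in each of the 4 groups. Their median difference was 2.84 in the LIN41 input, 2.77 in the SART-3 input, 4.87 in the LIN41 IP and 3.71 in the SART-3 IP. The 17 that fell had medians of -1.51 and -0.41 in the LIN41 and SART-3 inputs, and only 5 of the family were called lower without LIN41 input 1. By contrast, the number of risers was 37 without that library, 30 without replicate 3 and 33 with an offset for coding length.

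Collagens of the body shape loci, the dpy, sqt, rol and lon genes whose mutations change the shape of the worm, did not follow these col genes. Of 17 tested, none was called in either direction by edgeR (adjusted p from 0.0525), with a range of -0.48 to 0.62 and a median of -0.06. DESeq2 called 1 of them higher and 1 lower, and edgeR called 4 higher without LIN41 input 1, 4 in the IPs alone and 3 in the SART-3 libraries alone. Their median was -0.89 in the LIN41 input and 0.09 in the SART-3 input.

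Hedgehog-related genes encode secreted proteins of the epidermis and of glia that share a domain with, or derive from, the hedgehog family, and many are thought to act in the cuticle. Of 57 in the table, 38 were tested, 11 were called higher (15.8% background) and 8 lower (16.5% background), with a median of 0.03. A member high in replicate 1 only could pass the filter through those libraries, so these counts describe the genes that passed. The ground-like gene grl-17 was at 197, 211, 429 and 236 CPM in replicate 1 of the LIN41 input, SART-3 input, LIN41 IP and SART-3 IP. In the 8 other libraries it lay between 4.78 and 21.6 CPM, without overlap, and its log2 difference was 4.16 (SE 0.23, edgeR adjusted p = 2.84e-09). Next to it stood grl-20 with 4.06 (SE 0.23), grl-25 with 5.02 (SE 0.30) and the groundhog-like gene grd-7 with 5.19 (SE 0.29). Of the 11 risers, 8 were grl and 3 were grd genes, and no wrt (warthog) gene was among them. The number called higher was 11 or more under total count, RLE and upper-quartile scaling, with the length offset and without replicate 3, but 6 in the LIN41 libraries alone, 8 in the SART-3 libraries alone and 2 in the IPs alone, where 30, 37 and 22 of these genes were tested.

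Patched-related genes encode membrane proteins related to the hedgehog receptor Patched, several of which are needed for molting. Of 24 tested, 13 were called higher (15.8% background) and none lower by edgeR (also none by DESeq2), with a median of 0.55 against -0.015 over all 12036 genes. The largest of the leading 4 was ptr-22, at 72.3 and 74.6 CPM in the inputs of replicate 1 against 4.39 to 22.6 CPM in the 4 other inputs. Its log2 difference was 2.42 (SE 0.30, edgeR adjusted p = 4.02e-05). The others were ptc-1, a Patched homologue required in the germ line, with 1.26 (SE 0.20), ptr-8 with 0.95 (SE 0.17) and ptr-16 with 0.84 (SE 0.17). Long genes as a class were higher in the inputs of replicate 1 (described below), the median coding length of this list was 2718 bp, and with an offset for length 6 of the 24 were called higher, with a median of 0.29. Without replicate 3 there were 4.

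Among 38 tested molting genes, 11 were called higher and 2 lower (15.8% and 16.5% background), with a median of 0.30. The tetraspanin gene tsp-15 and the dual oxidase gene bli-3, whose products act together in cross-linking the cuticle, had log2 differences of 1.91 (SE 0.29, edgeR adjusted p = 0.00025) and 0.97 (SE 0.21). The nuclear hormone receptor gene nhr-23, which drives each molt, was at 82.0 and 84.7 CPM in the inputs of replicate 1 against 42.8 to 59.3 CPM in the 4 others. Its log2 difference was 0.64 (SE 0.14, edgeR adjusted p = 0.00348), with 67.8 against 53.95 and 57.3 CPM in the LIN41 IP and 91.6 against 69.7 and 52.6 CPM in the SART-3 IP. The molting gene mlt-10 went the other way, at 74.8 and 117 CPM in the inputs of replicate 1 and 175 to 211 CPM in the others, a log2 difference of -0.91 (SE 0.16, adjusted p = 0.000612). With the length offset 5 of the 38 were higher, and without replicate 3 only 1.

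Genes known from the dauer larva were chosen after their values were seen and are given as a description, with single-gene tests from the whole fit. The gene daf-42, required for the dauer larva, was the 5th gene by p. It was at 355 CPM in LIN41 input 1, 209 CPM in SART-3 input 1, 244 CPM in LIN41 IP 1 and 142 CPM in SART-3 IP 1, and between 4.39 and 14.1 CPM in the 8 other libraries (log2 4.79, SE 0.22, edgeR adjusted p = 3.78e-10). The cuticlin gene cut-1, whose product lies in the dauer cuticle, ranged from 266 to 841 CPM in replicate 1 and from 2.73 to 34.8 CPM elsewhere (log2 4.41, SE 0.34). Neither gene overlapped between replicate 1 and the rest, though a gene high in replicate 1 only could pass the filter on low counts through those libraries. The cuticlin gene cut-6 had a log2 difference of 3.22 (SE 0.22) and the collagen gene col-2, known as a dauer collagen, one of 3.44 (SE 0.28), with 313 to 2070.2 CPM in replicate 1 against 55.6 to 89.6 CPM. For cut-5 and the superoxide dismutase gene sod-3, a gene induced in dauer larvae, the values were smaller, 1.78 (SE 0.32) and 1.99 (SE 0.34), and the IP levels of cut-5 in replicate 1 (31.6 and 41.6 CPM) came close to the highest of the others (26.3 CPM). The labels name no dauer larvae, and whether any were present was not tested.

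**Figure D2:**
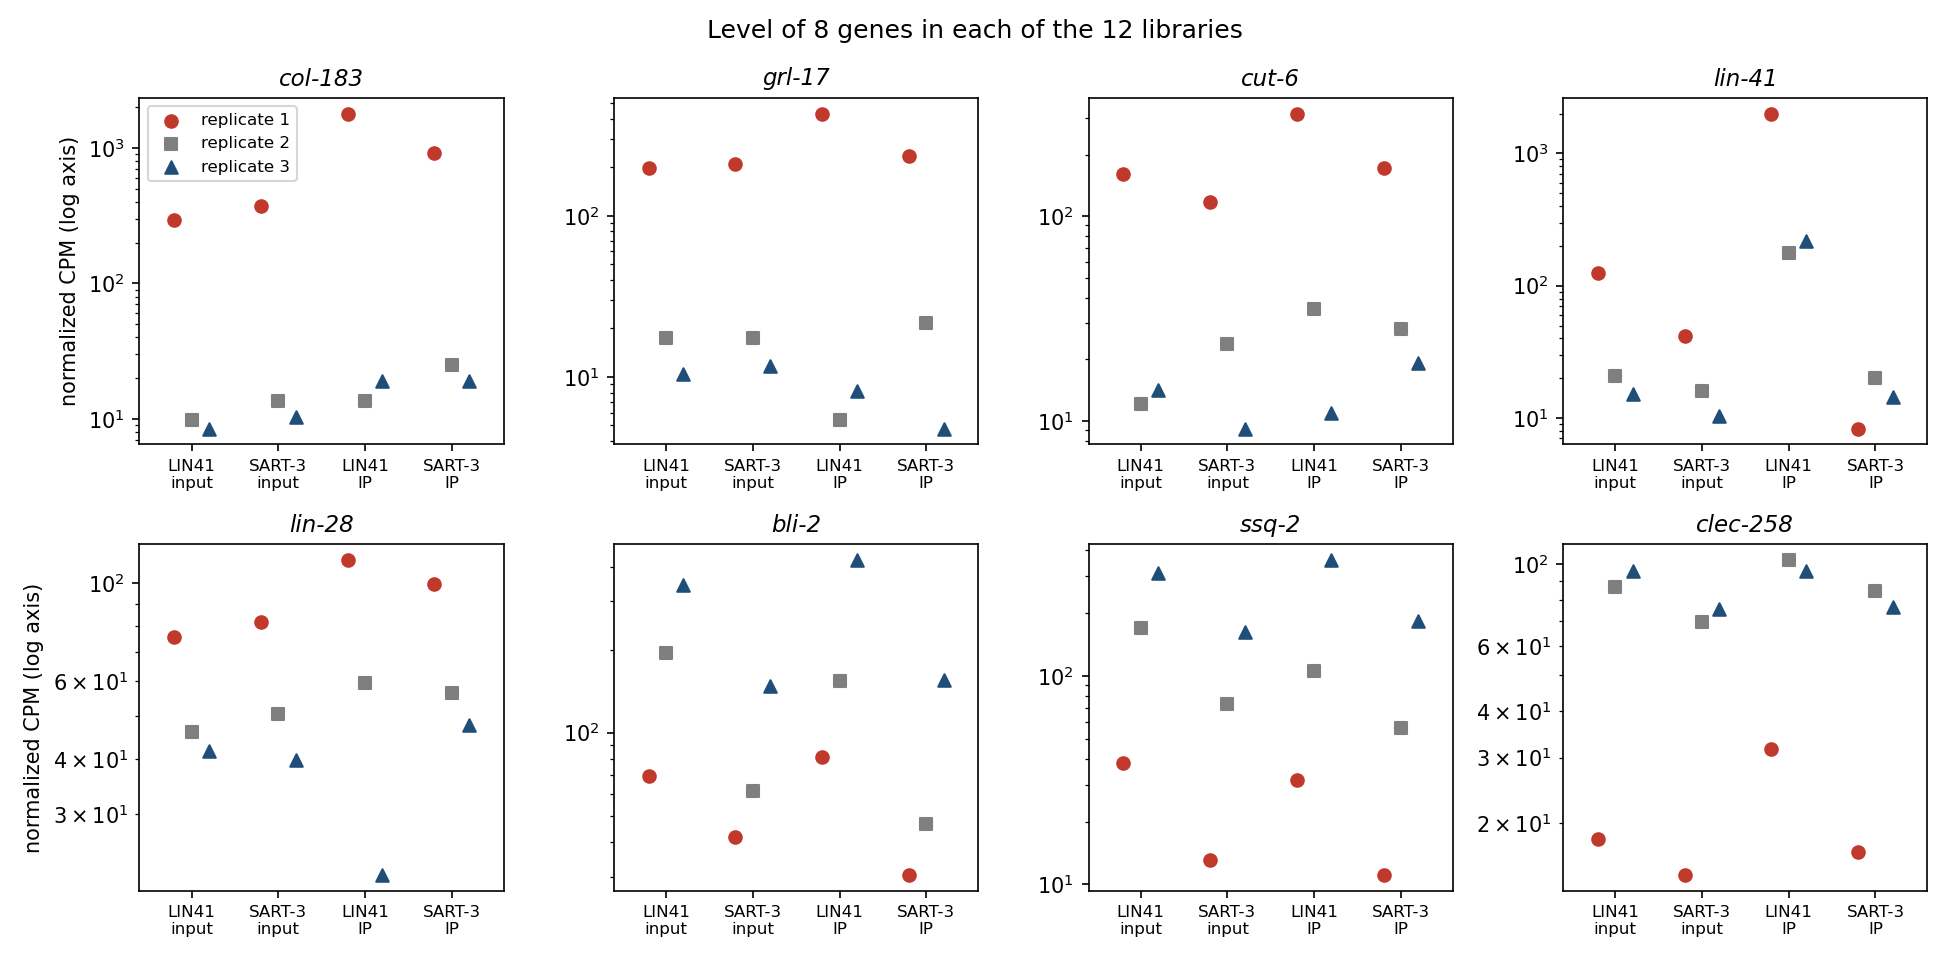
Normalized CPM (log axis, its range differs by panel) of 8 genes in each of the 12 libraries, by group on the x axis, with replicate 1 as red circles, replicate 2 as grey squares and replicate 3 as blue triangles. For col-183, grl-17 and cut-6 replicate 1 stands above both others in each group, for ssq-2 and clec-258 below both in each group, and lin-41 in the SART-3 IP is the exception to its rise elsewhere.

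Heterochronic genes were higher in replicate 1 where they were called. Of 18 tested, 9 were called higher (15.8% background) and none lower by edgeR (also none by DESeq2), with a median of 0.74 and a range of 0.07 to 2.48. The mRNA of lin-41, which encodes the RNA-binding protein of the pull-down and is silenced by the let-7 microRNA as larvae age, was at 124 CPM in LIN41 input 1 against 20.8 and 15.1 CPM in LIN41 inputs 2 and 3. The SART-3 inputs, in which the counts come from the endogenous gene alone, gave 42.0 against 16.04 and 10.4 CPM. In the LIN41 IP the levels were 1993 against 178 and 218 CPM, but in the SART-3 IP replicate 1 was the lowest, with 8.32 CPM (3 counts) against 19.9 and 14.3 CPM. Both inputs and the LIN41 IP therefore put replicate 1 above the others and the SART-3 IP did not. The fitted log2 difference was 2.48 (SE 0.31, edgeR adjusted p = 4.02e-05), with 2.33 (SE 0.30, adjusted p = 0.00364) in the inputs alone, and was 1.01 (adjusted p = 0.16) in the SART-3 libraries alone, where it did not pass. Without LIN41 input 1, the inputs gave 1.65 (adjusted p = 0.0556).

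The mRNA of lin-28, which encodes a protein that blocks let-7 maturation, was at 75.7 CPM in LIN41 input 1 against 46.1 and 41.6 CPM. In the SART-3 input it was at 81.8 against 50.7 and 39.7 CPM. The IP levels were 113 against 59.3 and 21.8 CPM with LIN41 and 99.9 against 56.4 and 47.8 CPM with SART-3, so that no group overlapped, and the log2 difference was 0.95 (SE 0.18, edgeR adjusted p = 0.00126). The nuclear hormone receptor gene daf-12, which acts in both the dauer decision and developmental timing, was at 57.6 and 56.5 CPM in the inputs of replicate 1 against 10.97 to 27.6 CPM, with a log2 difference of 1.39 (SE 0.31). In the SART-3 IP it overlapped, with 11.1 CPM between 9.57 and 21.6 CPM. The zinc finger gene sea-2 had a log2 difference of 1.34 (SE 0.29), and lin-42, the Period homologue that times molts, one of 0.85 (SE 0.20). Without LIN41 input 1, daf-12 and sea-2 were no longer called.

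For lin-14, the gene of the earliest larval fates, the difference did not pass the test over the 4 groups (log2 0.92, SE 0.41, adjusted p = 0.0938), while the inputs alone gave 1.34 (SE 0.41, edgeR adjusted p = 0.0395) with 44.99 and 34.7 CPM in replicate 1 against 5.67 to 24.4 CPM. The level of hbl-1 was at most 10.9 CPM in any library, too low for a comparison in the 4 groups. For the adult switch, lin-29 had a log2 value of 0.68 (SE 0.36, adjusted p = 0.155) and mab-10 one of 0.74 (SE 0.30, adjusted p = 0.0671), neither of which passed. In the LIN41 libraries alone both passed, with 1.51 for lin-29 (adjusted p = 0.0195) and 1.53 for mab-10 (adjusted p = 0.00484), and over 34 alternatives lin-29 passed in 4 and mab-10 in 10. Both are bound by LIN41 in this assay, and their levels differed by group: in the LIN41 IP, lin-29 was at 2138 CPM in replicate 1 against 502 and 455 CPM and mab-10 at 1361 against 329 and 404 CPM, whereas in the SART-3 IP lin-29 was at 19.4 against 84.6 and 64.6 CPM and mab-10 at 19.4 against 44.8 and 40.7 CPM. In the inputs, where replicate 1 overlapped or lay close to the others, lin-29 was at 71.1 against 65.8 and 36.9 CPM with LIN41 and 64.4 against 79.5 and 47.05 CPM with SART-3. The count of heterochronic genes called higher was 11 in the LIN41 libraries alone, 1 in the SART-3 libraries alone, 7 with the length offset, 4 without LIN41 input 1 and 3 without replicate 3. The list's median was 0.97 and 0.37 in the LIN41 and SART-3 inputs and -0.34 in the SART-3 IP.

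Of the genes of the L4 and adult cuticle, 9 were listed, 7 were tested and 6 were called lower in replicate 1 (16.5% background), with none higher by edgeR or DESeq2 and a median of -1.69. The blister gene bli-2 encodes a collagen of the struts of the adult cuticle. Its LIN41 input levels were 69.8 CPM in replicate 1, 194 CPM in replicate 2 and 342 CPM in replicate 3. Its SART-3 input levels were 42.0, 61.6 and 148 CPM in the same order. The IPs gave 81.4, 154 and 423 CPM with LIN41 and 30.5, 46.5 and 155 CPM with SART-3. Replicate 1 was the lowest library of each group and replicate 3 the highest, and the log2 difference was -1.69 (SE 0.36, edgeR adjusted p = 0.00259). Its partner bli-1 had -2.12 (SE 0.47, adjusted p = 0.00368), and the collagen genes col-38, col-138 and col-63 had -1.69 (SE 0.36), -2.25 (SE 0.48) and -3.21 (SE 0.86). The level of col-63 in the SART-3 input was 8.69 CPM in replicate 1, 5.13 CPM in replicate 2 and 62.9 CPM in replicate 3, so that its difference there rests on replicate 3. The 7th tested gene, col-19, a collagen of the adult cuticle under LIN-29 control, was at 2.10 to 49.1 CPM over all libraries and was not called. With the length offset 6 of the 7 were lower, without LIN41 input 1 or without replicate 3 there were 4, in the LIN41 libraries alone 6, in the SART-3 libraries alone 1 and in the IPs alone none, the median there being -1.87.

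Sperm genes fell together in replicate 1. Of 35 tested spermatogenesis genes outside the msp family, 26 were called lower (16.5% background) and none higher by edgeR or DESeq2, with a median of -1.47, and 20 lay below both other replicates in each of the 4 groups. The summed level of all 54 genes of this list in the table was 1100 CPM in replicate 1, 2048 CPM in replicate 2 and 3413 CPM in replicate 3 of the LIN41 input. The SART-3 input gave 635, 1171 and 2210 CPM. For ssq-2, a sperm-specific gene, the inputs were at 38.3, 170.0 and 311 CPM with LIN41 and at 13.03, 73.1 and 163 CPM with SART-3. The 2 strains gave the same order of the 3 libraries, and the log2 difference of ssq-2 was -2.88 (SE 0.42, edgeR adjusted p = 0.000155). Its family members ssq-1 and ssq-4 had -2.45 (SE 0.37) and -2.50 (SE 0.41), and since the family's sequences are alike the counting may have split reads among them. The sperm gene ssp-10 had -1.98 (SE 0.36). The list's count was 19 in the SART-3 libraries alone, 15 in the LIN41 libraries alone, 28 with the length offset, 22 without LIN41 input 1 and 14 without replicate 3.

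The major sperm proteins form the cytoskeleton of the crawling nematode sperm and are encoded by near-identical copies, so single members are uncertain and the sum is the safer value. Of 30 genes 7 were tested, of which 6 were called lower (16.5% background), with a median of -2.25. The summed level of the 30 was 33.6, 142 and 244 CPM in replicates 1, 2 and 3 of the LIN41 input and 15.2, 51.95 and 121 CPM in the SART-3 input. In the IPs the sums were 85.9, 183 and 515 CPM with LIN41 and 52.7, 76.3 and 304 CPM with SART-3, and replicate 1 was the lowest of each group. As single genes, msp-142 had a log2 difference of -2.25 (SE 0.45), msp-64 one of -2.13 (SE 0.40) and msp-40 one of -1.72 (SE 0.42). The number called lower was 4 without LIN41 input 1 and 2, of 4 tested, without replicate 3. In whole worms, fewer cells of a type and less RNA per cell cannot be told apart.

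Lists also differed in how replicates 2 and 3 stood to each other. The sperm and the L4 and adult collagen lists were taken whole, whereas the risers were chosen by their call, which uses the spread between replicates 2 and 3. For spermatogenesis genes, replicate 3 was above replicate 2 for 32 of 35 in the LIN41 input and 34 of 35 in the SART-3 input, with medians of 0.69 and 0.98 on the log2 scale. The L4 and adult collagens gave 7 of 7 and 6 of 7, with medians of 0.98 and 1.25. Replicate 2 lay between replicates 1 and 3 for 28 and 32 of the 35 sperm genes and for 7 and 5 of the 7 collagens. The 31 col genes called higher were otherwise: replicate 3 was above replicate 2 for 17 of 31 in the LIN41 input (median 0.11) and for 1 of 31 in the SART-3 input (median -0.68), against a replicate 1 difference of 2.84 and 2.77. For the hedgehog-related risers the medians of replicate 3 minus 2 were -0.10 and -0.74, against 3.51 and 3.43. Among the 17 col genes called lower, replicate 3 was above replicate 2 for 8 in the LIN41 input and 10 in the SART-3 input, with medians of -0.15 and 0.11. In the inputs these 17 as a set did not follow the sperm and L4 collagen lists. In the IPs, replicate 3 was above replicate 2 for 10 of the 17 with LIN41 and for 15 with SART-3. For spermatogenesis genes the IPs gave 28 and 32 of 35, and for the L4 and adult collagens 7 and 6 of 7. The sets are not separate, since the 17 include col-38, col-138 and col-63 of the L4 and adult list. Over all 1982 genes called lower the medians in the LIN41 and SART-3 inputs were 0.17 and 0.15, and over all 1896 called higher -0.06 and -0.12. Replicate 3 was below replicate 2 in these inputs for 30.4% and 26.2% of the genes called lower. It was below for 56.9% and 67.9% of those called higher and for 50.2% and 53.2% of all tested genes. In the LIN41 input the median of the col risers was thus nearly the same in replicates 2 and 3, and in the SART-3 input replicate 2 was the higher of the pair. These comparisons of replicate 2 with 3 rest on 1 library each and are given without a test.

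**Figure D3:**
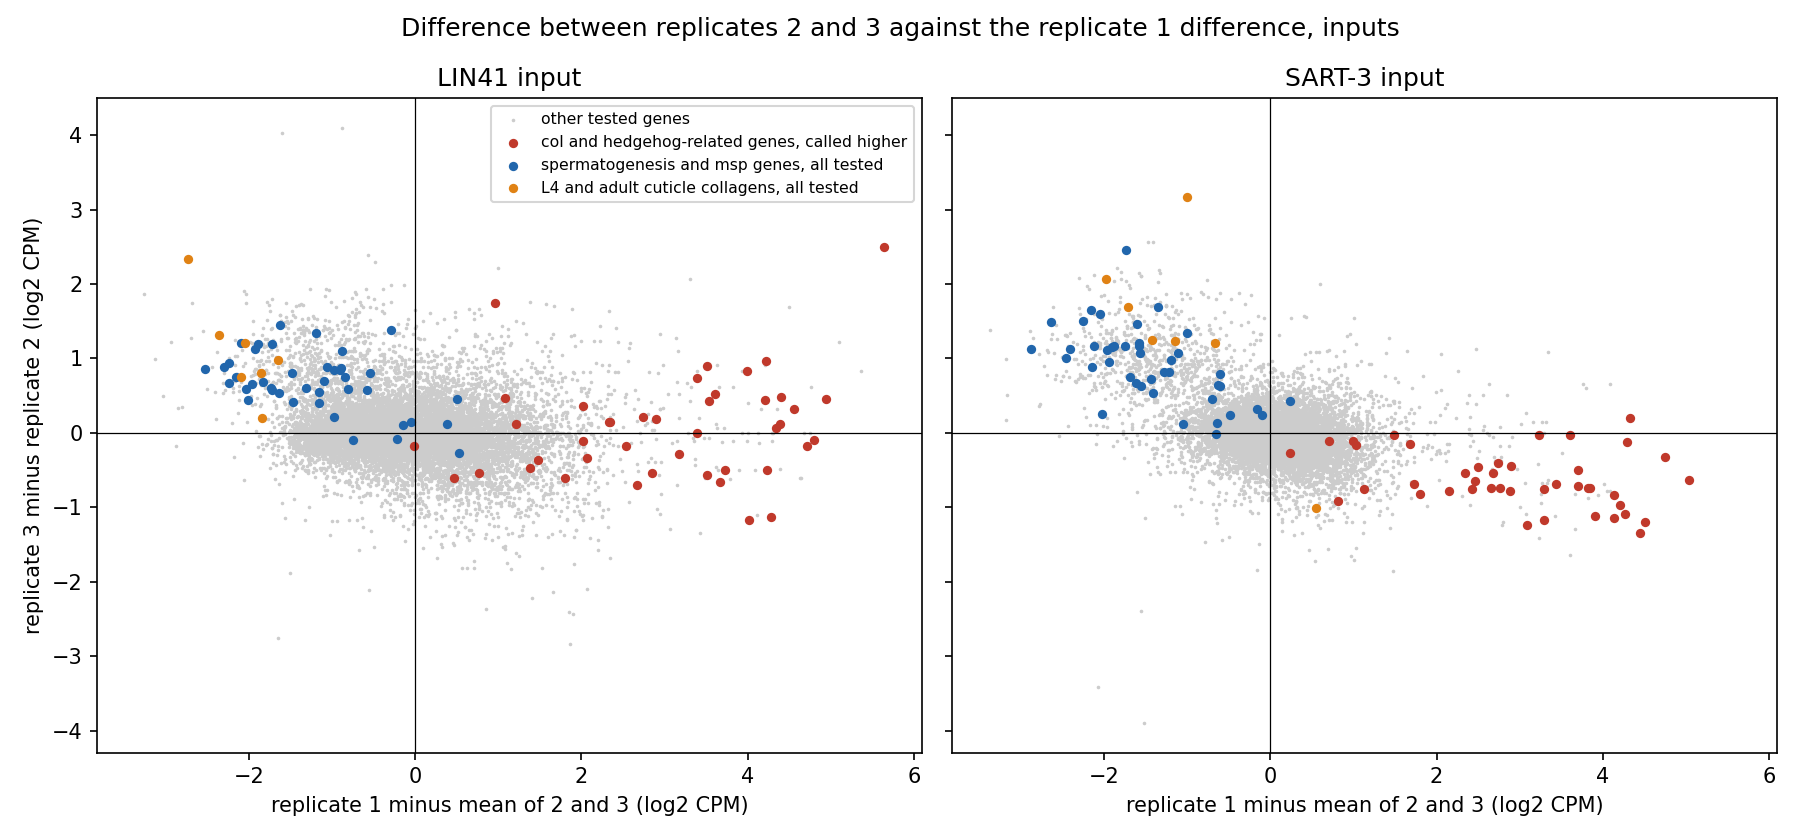
Each point is a gene, placed by replicate 1 minus the mean of replicates 2 and 3 (x axis) and by replicate 3 minus replicate 2 (y axis), both in log2 CPM, for the LIN41 input (left) and the SART-3 input (right). Sperm genes (blue) and L4 and adult collagens (orange) lie mostly at upper left, lowest in replicate 1 and higher in 3 than in 2, while the col and hedgehog-related genes called higher (red) lie far to the right, with medians near 0 on the y axis in the LIN41 input and at about -0.7 in the SART-3 input.

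Germ cells other than sperm moved less. Of 34 tested genes of the mitotic germ line and of P granules, 2 were called higher and 3 lower (15.8% and 16.5% background), with a median of -0.04, and of 30 meiosis genes 3 were lower, with a median of -0.13; DESeq2 called none of the meiosis genes, nor did edgeR without LIN41 input 1 or without replicate 3. The largest fall was that of sygl-1, a Notch target that maintains germline stem cells. It was at 21.0 and 12.3 CPM in the inputs of replicate 1 against 36.6 to 52.9 CPM in the others, and at 4.52 and 2.77 CPM in the IPs of replicate 1 against 21.8 to 33.5 CPM (log2 -1.58, SE 0.26, edgeR adjusted p = 0.000455). No library of replicate 1 reached any of the 8 others. Of 43 tested genes of DNA replication and mitosis, 3 were higher and 7 lower (15.8% and 16.5% background), among them zyg-9, a microtubule-binding protein of the spindle, with 0.89 (SE 0.14), and bir-1, the survivin homologue, with -0.73 (SE 0.17). The length offset gave 2 higher and 15 lower, and without replicate 3 there was 1 each. The summed level of germ cell genes was 2705 to 2913 CPM in all 6 inputs. Oocyte and maternal genes, which hermaphrodites express from the end of L4, gave 4 higher (15.8% background) and 1 lower (16.5% background) of 25; lin-41 is 1 of the 4. Vitellogenin genes, expressed in adult hermaphrodites, were at 13.9 to 52.9 CPM in sum in the inputs, and none of 3 tested was called by edgeR or DESeq2.

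Histone genes were lower where called. Of 26 tested, 13 were lower (16.5% background) and none higher by edgeR or DESeq2, with a median of -0.57. The linker histone gene hil-3 was at 46.7 and 49.9 CPM in the inputs of replicate 1 against 95.6 to 134 CPM. In the IPs it was at 36.2 and 30.5 CPM against 69.3 to 121 CPM, and the log2 difference was -1.30 (SE 0.15, edgeR adjusted p = 1.75e-05). For his-3, whose sequence is shared with other copies, the value was -1.30 (SE 0.20). Histone genes are short (median coding length 411 bp), and the list's median was -0.97 in the LIN41 input, -0.47 in the SART-3 input and -0.14 in the LIN41 IP. With the length offset 8 were lower and the median was -0.30, without LIN41 input 1 there were 7 and without replicate 3 there were 6.

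Of the 10 genes of lowest p that were lower in each group, 1 of which is hil-3, the C-type lectin gene clec-258 was first, at 18.1 CPM against 86.7 and 95.4 CPM in the LIN41 input and at 14.5 against 69.9 and 75.8 CPM in the SART-3 input. In the IPs it was at 31.6 against 103 and 95.4 CPM with LIN41 and 16.7 against 84.6 and 76.5 CPM with SART-3, so that replicate 1 stood alone and replicates 2 and 3 lay close together. Its log2 difference was -2.22 (SE 0.17, edgeR adjusted p = 9.76e-08). The arginine kinase gene argk-1 was at 69.4 to 217 CPM in replicate 1 and 286 to 504 CPM elsewhere (log2 -1.82, SE 0.19), and the haem transporter gene hrg-4 at 20.3 to 36.1 CPM against 62.2 to 122 CPM (log2 -1.82, SE 0.18). Neither overlapped. The glycine cleavage gene gcsh-1 had -1.48 (SE 0.16), the cystathionine lyase gene cth-1 -1.28 (SE 0.16), the D-aspartate oxidase gene ddo-1 -1.28 (SE 0.16) and the neuropeptide-like gene nlp-26 -1.52 (SE 0.19). The genes Y87G2A.16 and F19H6.5, which carry no gene name in the annotation, had -1.84 (SE 0.18) and -2.47 (SE 0.29).

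In the intestine list, 4 of 27 tested genes were called higher, near the background of 15.8%, and 2 lower, under the background of 16.5%; without LIN41 input 1, 11 were higher and 2 lower. The fatty acid desaturase gene fat-5 led with 1.73 (SE 0.26, edgeR adjusted p = 0.000193), at 174 and 211 CPM in the inputs of replicate 1 against 46.1 to 108 CPM. The lysozyme gene lys-7 had 1.12 (SE 0.20) and the metallothionein gene mtl-1 1.27 (SE 0.24), while acdh-1, an acyl-CoA dehydrogenase gene that responds to the diet, had -0.84 (SE 0.23). Of 24 detoxification and oxidative stress genes, 6 were higher (15.8% background) and 1 lower (16.5% background). Among them were gcs-1, of glutathione synthesis, with 1.26 (SE 0.22), the cytochrome P450 gene cyp-35B1 with 1.90 (SE 0.36) and dod-3, named as downstream of daf-16, with 1.08 (SE 0.23). Heat shock and proteostasis genes gave 3 higher and 1 lower of 17 (15.8% and 16.5% background), with 1.34 (SE 0.32) for hsp-70 and -1.03 (SE 0.29) for the small heat shock gene hsp-12.1. Total count scaling turned this split to 2 higher and 4 lower, DESeq2 gave 6 and 1, and without replicate 3 edgeR called none of 18.

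In the epidermal list, 2 of 12 tested genes were higher (15.8% background) and none lower, and DESeq2 also gave 2 and none. Without LIN41 input 1, as without replicate 3, 1 gene was higher. The pair was lin-26, which maintains epidermal identity, with 1.05 (SE 0.16, edgeR adjusted p = 0.000261), and the nuclear receptor gene nhr-6 with 1.14 (SE 0.28). In the vulval list 3 of 20 were higher (15.8% background) and none lower by edgeR or DESeq2, with 1 higher without LIN41 input 1 and none without replicate 3. Among regulators of sex, 3 of 15 were higher and 1 lower (15.8% and 16.5% background). DESeq2 gave 2 and 1, as did edgeR without LIN41 input 1, and without replicate 3 edgeR gave 1 and 0. The terminal switch gene tra-1 was at 126 and 142 CPM in the inputs of replicate 1 against 65.2 to 92.4 CPM (log2 0.92, SE 0.13, edgeR adjusted p = 0.000153). The others were fem-2 with 0.81 (SE 0.21), sdc-3 with 1.06 (SE 0.35) and mab-3, which specifies male traits through a DM domain factor, with -0.54 (SE 0.16), whose replicate 1 level in the LIN41 input, 49.2 CPM, was just under the others at 49.4 and 77.5 CPM. Over the alternatives, sdc-3 lost its call in 9 of 29, and fem-2 and mab-3 in 7 of 34 each. The mab-3 relative dmd-3, which times male tail retraction, was at 18.1 against 24.1 and 17.01 CPM in the LIN41 input. In the SART-3 input it was at 8.69 against 30.1 and 36.7 CPM, and it was not called over the 4 groups. In the SART-3 libraries alone dmd-3 was called lower (log2 -1.94, edgeR adjusted p = 0.0156), and in the LIN41 libraries alone its value was 0.156 (edgeR adjusted p = 0.764). Of 15 listed male neuron genes, 3 were tested. Of these, nlp-8 and tbb-6 were higher (15.8% background), with 1.22 (SE 0.20) and 0.96 (SE 0.18). These lists are small, and the share of males in each culture was not measured.

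Among 94 tested neuropeptide genes, 20 were called higher and 5 lower (15.8% and 16.5% background), with a median of 0.30. The insulin-like gene ins-35 was at 76.5 and 122 CPM in the inputs of replicate 1 against 36.9 to 71.2 CPM (log2 1.32, SE 0.21, edgeR adjusted p = 0.000326), and the FMRFamide-like gene flp-3 at 40.8 and 65.2 CPM against 18.6 to 30.1 CPM (log2 0.98, SE 0.16). These are short genes with a median coding length of 292 bp, and with the length offset 41 of the 94 were called higher and the median was 0.59; without replicate 3 there were 4. The inputs alone called 6 higher and 6 lower.

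Cytosolic ribosomal protein genes served as a class of short, abundant mRNAs. None of 78 was called higher and 1 lower by edgeR (15.8% and 16.5% background), with a median of 0.07. The 4 groups differed, with medians of -1.19 in the LIN41 input, 0.21 in the SART-3 input, 0.66 in the LIN41 IP and 0.40 in the SART-3 IP, and without LIN41 input 1 the fit called 60 of the 78 higher, with a median of 0.42. Of 35 muscle genes 7 were higher (15.8% background) and none lower by edgeR or DESeq2, among them the myosin genes myo-5 with 0.99 (SE 0.18) and myo-2 of the pharynx with 0.67 (SE 0.14); with the length offset 2 were higher, and myo-2 was no longer called. Total count scaling gave 5 muscle genes higher and 3 lower.

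**Figure D4:**
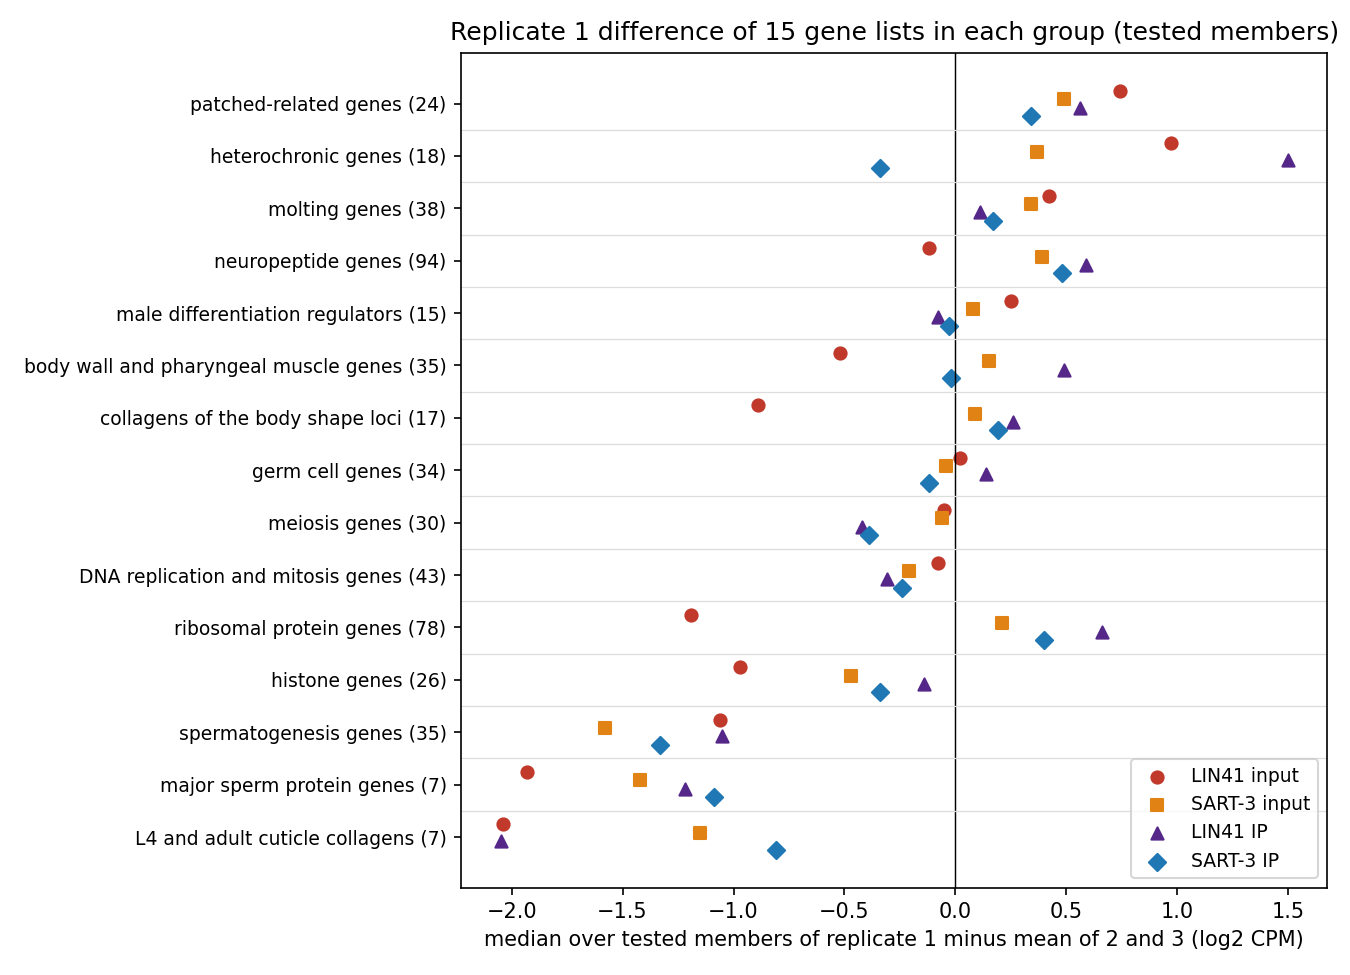
Median replicate 1 difference (log2 CPM, x axis) over the tested members of 15 gene lists (their number in brackets), with 1 symbol for each group. The sperm lists and the L4 and adult collagens lie below 0 in all 4 groups and the patched-related and molting genes above 0, while ribosomal protein genes, muscle genes and body shape collagens lie below 0 in the LIN41 input and at or above -0.02 in the other 3 groups.

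Coding length moved with the difference of replicate 1 in the inputs. In the shortest of 5 length classes (60 to 615 bp) the median difference was -0.78 in the LIN41 input and -0.14 in the SART-3 input, and in the longest (1977 to 55975 bp) it was 0.50 and 0.27. In the IPs the medians of all 5 classes lay between -0.08 and 0.04. Genes called lower had a median coding length of 819 bp, those called higher 1614 bp and the others 1164 bp. With an offset for length in each library, 1840 genes were called higher and 1926 lower, close to the counts without it. The part of RNA handling or of library depth in this trend was not tested.

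**Figure D5:**
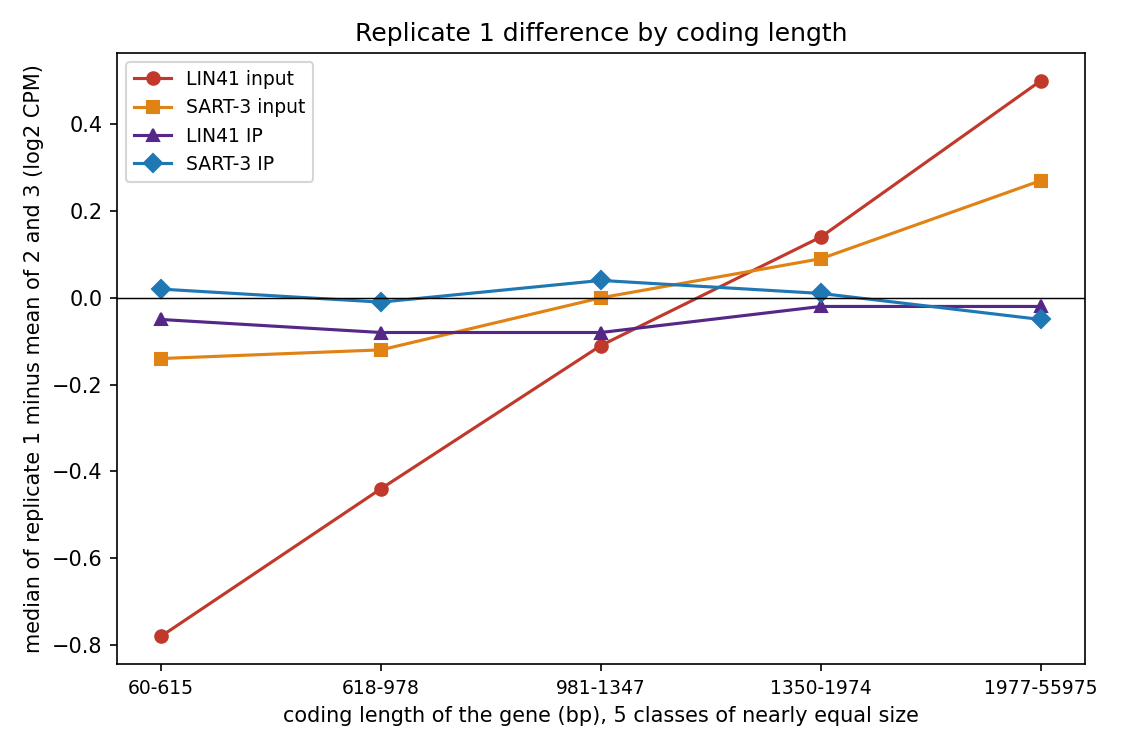
Median replicate 1 difference (log2 CPM, y axis) in 5 classes of coding length (bp, x axis), with 1 line for each group. The LIN41 input runs from -0.78 in the shortest class to 0.50 in the longest and the SART-3 input from -0.14 to 0.27, while both IPs stay between -0.08 and 0.04.

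X-linked genes were called higher more often than autosomal ones. On the X chromosome, 355 of 1529 tested genes (23.2%) were higher and 106 (6.9%) lower, against 1509 and 1861 of 10321 autosomal genes. The median difference of X-linked genes was 0.21, 0.16, 0.26 and 0.13 in the LIN41 input, SART-3 input, LIN41 IP and SART-3 IP, and that of autosomal genes was -0.15, 0.00, -0.09 and -0.02. With the length offset the X-linked shares were 22.5% and 7.0%. The SART-3 libraries alone gave 9.1% higher and 2.4% lower on X against 7.0% and 5.8% on the autosomes, and total count scaling gave 19.7% and 9.2% on X. As background, most genes of the germ line, and of sperm above all, lie on autosomes. Neighbouring and co-regulated genes are not independent, so no test is given over chromosomes.

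Whether the difference of replicate 1 had another size in the IPs than in the inputs was tested as an interaction. The answer depended on the fit. With each group as a term and no pairing, edgeR's quasi-likelihood test called no gene of 12036 higher or lower (0.0% each, lowest adjusted p = 0.127), with 1142 and 808 genes at an unadjusted p under 0.05, DESeq2 called 1 in each direction and the likelihood ratio test 68 and 91. With IP and input paired by lysate, a replicate block added after the data were seen, the quasi-likelihood test called 165 genes with a higher and 173 with a lower difference in the IP. That fit gave edgeR an infinite prior degree of freedom, so that the spread of each gene was set to the trend over all genes. Under the same pairing the likelihood ratio test called 332 and 213, limma-voom 92 and 33, and DESeq2 4 and 2. Without pairing, leaving out SART-3 input 1 gave 872 and 114 and leaving out SART-3 IP 1 gave 871 and 106. The quasi-likelihood test between strains called 55 genes (0.457%) with a larger difference in LIN41 than in SART-3 and 7 (0.0582%) with a smaller one. The calls between strains had a median coding length of 2463 bp where LIN41 was larger, against 1152 bp over all genes, and the length offset gave 15 and 4.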

How the data were processed

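RNA of 12 libraries (4 groups of 3) was sequenced. The authors collapsed reads with the same 5′ end, aligned them with QuasR and deposited read counts per gene over WormBase WS190 exons; the paper names ce6, the labels ce10. The counts are whole numbers and not normalized, so depth differs between libraries. Collapsing caps the counts of short, abundant mRNAs (at most 0.932 counts per bp). Of 20182 identifiers, 18778 (93.0%) matched a WBcel235 symbol, used for names and chromosomes only; 96.6% of the lengths are multiples of 3 and are called coding lengths.

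The comparison, members and gene lists were chosen with earlier results of these data known. In R 4.3.3, edgeR 4.0.16 (filterByExpr by group, TMM, glmQLFit) fitted group and replicate 1 against the rest, two-sided, with Benjamini-Hochberg adjustment; SEs follow from the F statistic. Differences within a group were taken between log2 CPM values (prior count 2). The study's methods name a likelihood ratio test, which was run as 1 of the alternatives, and a sequencing batch term whose libraries they do not list; the labels give 1 flow cell, and whether batch follows replicate number was not tested. Input RNA was diluted to the concentration of the IPs before library preparation. The biological coefficient of variation was 0.183 over 4 groups and 0.16 in the inputs. The fit was checked on simulated counts.

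Named genes are the 10 of lowest p in each direction with 1 sign in all groups, up to 4 of lowest p per list, fixed genes of the timing pathway, and the 3 of lowest p in each direction of each interaction; dauer genes and the genes of the closing paragraphs were added after values were seen. Alternatives were RLE, upper-quartile or no scaling factors, no filter or a mean count of 10, DESeq2 1.42.0, limma 3.58.1 voom, the likelihood ratio test, counts thinned to 291466, a ceiling correction, a 3-level replicate term, strains, IPs or lysate sums alone, a lysate correlation (0.156), a threshold of 0.01, and leaving out each library; offsets for coding length (loess, span 0.3) and, for IP against input, a replicate block by lysate were added after the data were seen. No sequence was read.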

Additional observations from a re-analysis of the deposited data

Results flagged for a closer look

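The interaction of replicate 1 with the strain gave 55 genes whose replicate 1 difference was larger in the LIN41 libraries and 7 whose difference was smaller, by edgeR's quasi-likelihood test. Without LIN41 input 1 or without SART-3 input 1, the same test called 1 gene larger and none smaller. The gene ssl-1 was at 152 CPM in LIN41 input 1 against 37.3 and 59.5 CPM, and at 18.8 CPM in SART-3 input 1 against 84.0 and 91.0 CPM, a strain difference of 3.94 (SE 0.41, edgeR adjusted p = 0.00137). For gid-7 the levels were 83.2 against 40.6 and 58.6 CPM and 9.41 against 66.1 and 64.2 CPM, a strain difference of 3.53. Both genes thus lay above the other replicates in LIN41 and below them in SART-3. The strain difference was 3.92 for Y39G10AR.11 and, in the opposite direction, -3.07 for nhr-155 and -2.11 for Y38E10A.14. Smaller values were found for mbk-2 (1.51), mab-10 (1.84) and thoc-7 (-1.09), each at an edgeR adjusted p of 0.0429. Over 25 alternatives, mbk-2 lost its call in 10, mab-10 in 12 and thoc-7 in 14. The mab-10 value takes in the IPs of an mRNA bound by LIN41, whose levels differed by group as given above.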

How the results depend on the processing

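For the difference of replicate 1, no paired analysis was possible because the replicate number is itself the comparison. The strain interaction was fitted without a block for replicate number, and a fit with such a block was not run. Over the 4 groups, 1896 genes were higher and 1982 lower. Leaving out 1 library or replicate gave 825 to 2500 and 619 to 2141. Counts thinned to the lowest total gave 1000 and 886, a threshold of 0.01 gave 1062 and 923, the IPs alone 333 and 148 (423 and 133 with length offsets), the SART-3 libraries alone 845 and 616 (828 and 629 with offsets) and the LIN41 libraries alone 1390 and 938 (1260 and 1007 with offsets). In the inputs, DESeq2 gave 1154 and 1105, thinned counts 662 and 493, a threshold of 0.01 454 and 204, and leaving out 1 library or replicate 425 to 2409 and 179 to 2340.

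The interaction of IP and input, with 0 calls in each direction, gave 2 and 17 with total counts, 15 and 27 without a filter, 1 and 1 with DESeq2, 68 and 91 with the likelihood ratio test, 7 and 6 with thinned counts, and 0 to 872 and 0 to 114 when 1 library or replicate was left out. With a replicate block by lysate (IP and input paired) it gave 165 and 173, 332 and 213 with the likelihood ratio test, 92 and 33 with limma-voom and 4 and 2 with DESeq2. The strain interaction, with 55 larger and 7 smaller, gave 92 larger with RLE, 149 with upper-quartile and 127 with total count scaling, 168 and 34 without a filter, 11 smaller with a mean count of 10, 16 and 3 with DESeq2, 18 and 1 with limma-voom, 259 and 153 with the likelihood ratio test, 14 and 1 with thinned counts, 15 and 4 with length offsets, 4 and 0 at 0.01, and 1 to 169 and 0 to 419 when 1 library or replicate was left out. The cause of these shifts was not tested.

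The sign turned for 6 named genes, none of which was called over the 4 groups or in the inputs. For lin-29 it was -0.017 without LIN41 IP 1 (up to 1.026 without other libraries), -0.403 in the SART-3 libraries alone (-0.409 with length offsets) and, in the inputs, -0.093 without replicate 3 (up to 0.739). For mab-10 it was -0.566 in the SART-3 libraries alone (-0.597 with offsets) and, in the inputs, -0.407 without LIN41 input 1 (up to 0.973). For col-19 it was 0.146 in the SART-3 libraries alone (0.221 with offsets), with -1.074 to 0.105 over left-out libraries and -2.497 to 0.597 in the inputs. For dmd-3 it was 0.156 in the LIN41 libraries alone (0.385 with offsets) and 0.031 in the IPs with offsets. For sart-3 it was -0.001 with total counts, -0.053 with thinned counts, -0.201 with offsets, -0.061 in the SART-3 libraries alone (-0.186 with offsets), -0.147 in the LIN41 libraries with offsets, -0.415 in the IPs alone (-0.352 with offsets), -0.091 to 0.139 over left-out libraries and -0.173 in the inputs with offsets. For hbl-1 the inputs gave -0.238 with offsets and -0.364 to 1.015 over left-out libraries. Of the alternatives for named genes over the 4 groups, 145 lost a call and 22 gained one. With 1 library per number and group, age of the worms, day of culture and handling cannot be told apart, and the shallow IPs limit what can be seen of genes under about 13.6 CPM.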

Other observations

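Genes of the lists in these paragraphs were chosen after their values were seen, so their counts are a description. Of 14 tested pals genes, a family of which some members respond to microsporidia and viruses, 5 were called higher in replicate 1 (15.8% background) and 2 lower (16.5% background). Here too, a member high in replicate 1 only could pass the filter on low counts, so the counts describe the genes that passed. The 5 were pals-26 with a log2 difference of 4.51 (SE 0.38), pals-32 with 3.49 (SE 0.26), pals-14 with 3.41 (SE 0.31), pals-39 with 3.35 (SE 0.26) and pals-6 with 2.35 (SE 0.29). The summed level of 34 pals genes was 1238 CPM in LIN41 input 1 against 575 and 559 CPM, and 813 CPM in SART-3 input 1 against 516 and 529 CPM. Of the 99 genes higher by more than 3 on the log2 scale, 46 (46.5%) lie on chromosome V, which holds 2285 of the 12036 tested genes.

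Mitochondrial ribosomal protein genes were called lower in 37 of 64 cases (16.5% background) and higher in none by edgeR or DESeq2, with a median of -0.47. The strongest by p were mrpl-54 with -1.15 (SE 0.19) and mrps-15 with -0.75 (SE 0.13). These are short genes (median coding length 609 bp), and with the length offset 23 were lower, without LIN41 input 1 there were 16 and without replicate 3 there were 10. Among 81 unc genes, many of which act in neurons, 34 were higher (15.8% background) and none lower by edgeR or DESeq2, led by unc-5, a netrin receptor gene, with 0.96 (SE 0.13) and unc-104, a kinesin gene of synaptic vesicle transport, with 1.82 (SE 0.24); with the length offset there were 20, without LIN41 input 1 there were 18 and without replicate 3 there were 9.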
